A study of Mus musculus with 12 samples.

Results

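Mature adipocytes of inguinal fat were profiled by RNA sequencing in 3 libraries labelled Kdm5c+/- and in 3 wild-type libraries, whose genotype is given as Kdm5c+/+, and the levels were compared gene by gene. Levels are in CPM, the reads of a gene per 1000000 reads of its library. A gene was described if 3 or more of these 6 libraries reached 1 CPM. This rule kept 11913 of 16670 genes listed, or 71.5%. Just inside it were genes such as Osr2 and Crnde, whose deciding value, the highest but 2 of the 6, was 1.001 CPM, and just outside were Bik and Tyrobp at 0.992 CPM. All mice were female C57BL/6, and the labels give no age. The fat pads of 2 mice were pooled for each library, cut up and digested with collagenase, and the mature adipocytes were taken from the layer that floated after a spin. The pellet of the same digests gave 6 stromal vascular libraries, 3 per genotype label, which serve here only as a reference. The 6 mature adipocyte libraries held 24191683 to 29434125 reads, and 3 reads came to 0.102 to 0.124 CPM. The labels do not say how the Kdm5c allele was made, and a library stands for a pool and not for 1 animal.

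Mature adipocytes store triglyceride in a single large droplet, release it as fatty acids on adrenergic stimulation, and secrete hormones such as adiponectin. Kdm5c encodes a demethylase that removes methyl groups from lysine 4 of histone H3, a mark of active promoters and enhancers. The gene is X-linked and escapes X inactivation, so that both copies are read in female cells. Fat cells, like most cells, also run a circadian clock: CLOCK or NPAS2 pairs with ARNTL (BMAL1) to drive Per, Cry and Nr1d genes and output factors such as Dbp, and the PER, CRY and NR1D proteins repress this drive in turn.

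The gene Kdm5c lies at chrX:152233020-152274535 in GRCm38 (gene bodies here and below are from GENCODE). Its level was 158, 190.3 and 158 CPM in the libraries labelled Kdm5c+/- 1, 2 and 3, and 179, 174 and 180.0 CPM in wild-type libraries 1, 2 and 3, the order kept for all values below. The groups overlapped. The difference, labelled Kdm5c+/- minus wild type on the scale of log2(CPM + 1), was -0.08 ± 0.10 (SE, n = 3 each), with a 95% interval of -0.30 to 0.15 and an adjusted p of 0.717 (limma). A level of 1 copy in place of a pair would lie near -1, outside this interval. The level therefore does not bear out the label, and reads from an altered allele, if it still makes RNA, cannot be told apart from others here. The libraries are called by their labels throughout.

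No gene passed the test. With limma and Benjamini-Hochberg adjustment, 0 of 11913 genes (0.0%) were called at 0.05, and the lowest adjusted p was 0.273. Unadjusted p was under 0.05 for 664 genes with higher levels (5.57%) and 1073 with lower levels (9.01%) in the libraries labelled Kdm5c+/-, 1737 in all (14.6%). The edgeR test on reads recovered from the CPM values called 0 as well, with 1797 at unadjusted p under 0.05 (15.1%). DESeq2 on the same reads called 250 (2.1%), 125 in each direction (1.05%). Of these, 249 had an unadjusted p under 0.05 in limma and 248 had no overlap between the labels. The share of unadjusted calls that were higher depended on the scaling: 38.2% on CPM, 53.5% after quantile normalization, 52.1% after scaling by the median of ratios, 50.8% in DESeq2 and 54.6% in edgeR. Levels did not overlap between the labels for 1125 genes that were higher (9.44%) and 1498 that were lower (12.6%). Since no gene passed, "higher" and "lower" below describe levels in these 6 libraries, and every gene named had an adjusted p of at least 0.273 in limma.

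Of all genes tested, 43.1% were higher in the libraries labelled Kdm5c+/-, and most were close to equal. The median log2 difference was -0.03, with the 5th percentile at -0.54 and the 95th at 0.35. On the scale of log2(CPM + 1), the 95% interval lay wholly between -1 and 1 for 10653 genes (89.4%). It lay within the log2 of 1.5 either way for 8065 (67.7%). This scale understates the change of low genes, so for low genes such an interval does not exclude a 2-fold or 1.5-fold difference in CPM. A difference over 1 in size was estimated for 89 genes (0.747%). The median SE was 0.13.

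The 6 libraries did not part cleanly by label. The first principal component of log2(CPM + 1) held 53.8% of the variance and ran from the library labelled Kdm5c+/- 2 at -34.8, through 1 at -17.6, to wild type 2 at 23.6. The library labelled Kdm5c+/- 3 lay at 10.1, between wild type 1 at 6.16 and wild type 3 at 12.5. Across genes, its correlation was highest with wild type 3 (Pearson r 0.993, a value over genes, which are not replicates). Markers of other cell types also differed between libraries: the summed level of 14 endothelial markers was 265, 149 and 282 CPM in the libraries labelled Kdm5c+/- and 424, 392 and 335 CPM in wild type. Adipocyte identity was clear in all 6, with 24 adipocyte markers summing to 111803, 125412 and 109972 CPM against 98941, 100482 and 99060 CPM, and with 11138 to 18033 CPM in stromal vascular libraries. Neither sum overlapped between the labels (exact permutation p = 0.1 for each, two-sided, the smallest that 3 against 3 allows). In pooled tissue RNA, fewer cells of a type and less RNA per cell cannot be told apart.

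Several genes of the circadian clock were apart between the labels, some higher and some lower. Of 20 clock genes sought, 18 were tested, and 3 had an unadjusted p under 0.05 with higher levels and 5 with lower levels in the libraries labelled Kdm5c+/-, against 5.57% and 9.01% of all genes. Of 5 activators 3 were lower. Arntl (chr7:113207465-113314126), which encodes BMAL1, was at 18.6, 8.53 and 22.9 CPM against 38.2, 45.4 and 49.7 CPM. Every library labelled Kdm5c+/- lay below every wild-type one, with a difference of -1.46 ± 0.33. Npas2, the partner that can stand in for CLOCK, was at 11.2, 18.4 and 10.7 CPM against 24.8, 22.8 and 24.7 CPM (-0.84 ± 0.20). Clock was at 109, 127 and 118 CPM against 149, 162 and 164 CPM (-0.42 ± 0.09), again with no overlap.

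Among the repressors, Cry1 and Cry2 were lower and the nuclear receptors of the Nr1d pair were higher. Cry1 (chr10:85131700-85185064) stood at 5.21, 2.88 and 5.37 CPM in the libraries labelled Kdm5c+/- and at 12.4, 13.2 and 11.9 CPM in wild type, a difference of -1.33 ± 0.20. The 3 wild-type values lay close together, well above the other 3. Cry2 was at 108, 91.8 and 113 CPM against 137, 134 and 117 CPM (-0.31 ± 0.11). Nr1d2, which encodes REV-ERB beta, was at 58.0, 93.0 and 61.0 CPM against 49.3, 44.0 and 42.2 CPM (0.61 ± 0.18), without overlap. Nr1d1, which encodes REV-ERB alpha, was at 433, 521 and 333 CPM against 346, 252 and 269 CPM (0.56 ± 0.19), and here library 3 labelled Kdm5c+/- was below wild type 1. Of the output factors, Dbp (chr7:45705088-45710203) had the largest difference: 22.8, 31.3 and 25.7 CPM against 12.1, 8.36 and 6.95 CPM, a difference of 1.46 ± 0.20. Its relative Tef was at 111, 139 and 123 CPM against 101, 114 and 93.4 CPM (0.27 ± 0.11), with overlap. The Per genes overlapped between the labels, with Per1 at 96.9, 263 and 124 CPM against 89.0, 116 and 126 CPM, where library 2 labelled Kdm5c+/- stood apart. In the stromal vascular libraries the differences of the same genes were -0.29 for Arntl, -0.04 for Npas2, -0.07 for Clock, 0.05 for Cry1, 0.08 for Nr1d2 and -0.04 for Dbp. The test of the difference between fractions gave an adjusted p of 0.445 for Cry1, 0.504 for Dbp and 0.509 for Arntl in limma, so none passed. Without the library labelled Kdm5c+/- 3 the counts were 3 higher and 6 lower, and without both libraries numbered 2 they were 3 and 4. The labels used here give no hour of collection, and its part in these levels was not tested.

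**Figure D1:**
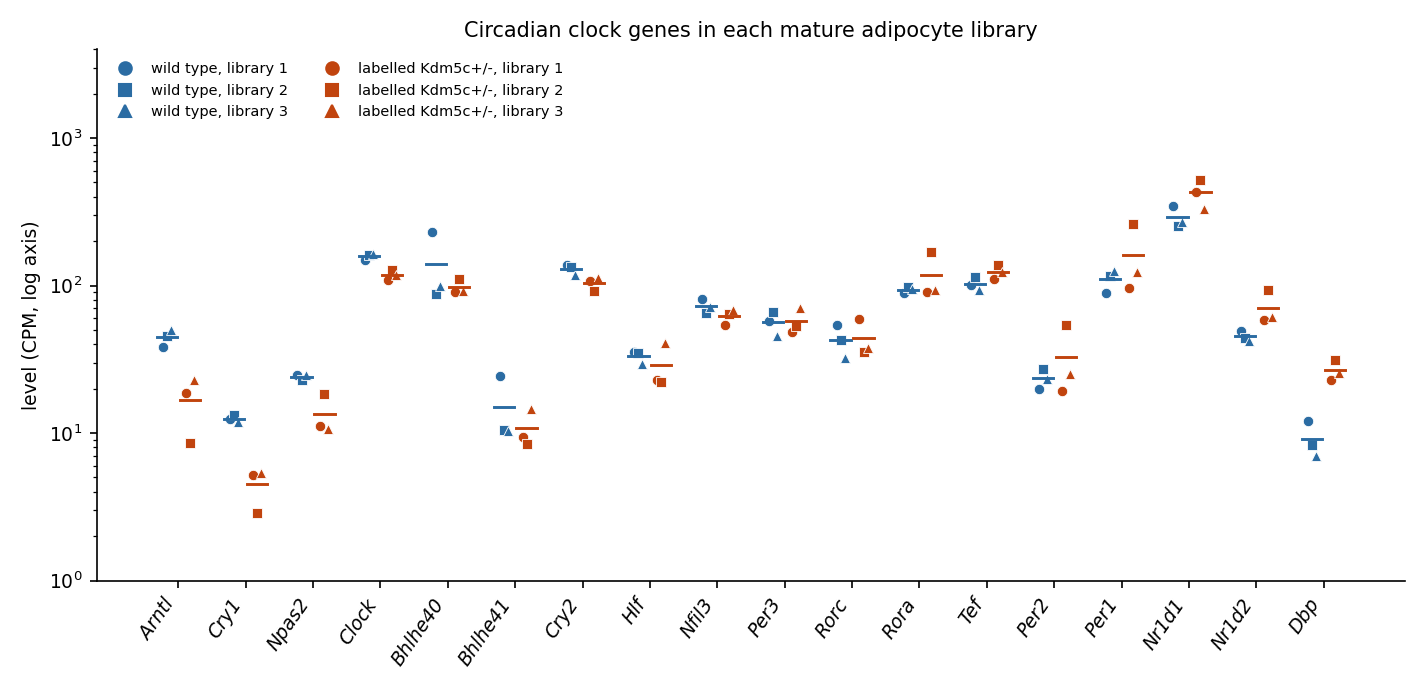
Level of the 18 clock genes tested (CPM, log axis) in each of 6 mature adipocyte libraries, ordered by log2 difference, with wild type in blue, the libraries labelled Kdm5c+/- in red, a symbol per library number and a bar at each mean of 3. Arntl, Cry1, Npas2, Clock and Cry2, all lower, and Nr1d2 and Dbp, both higher, show no overlap between the labels.

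Promoter sequences were looked up for these genes because the members that differed are known to act on one another through short motifs: CLOCK with BMAL1 binds the E-box CACGTG, and REV-ERB and ROR receptors bind sites that hold AGGTCA. RefSeq windows of the 250 bases before a gene's start in GRCm38.p6 matched 15 of the 18 clock genes tested, with 20 windows, since some genes have several starts. CACGTG, which reads the same on both strands, was in 5 of these 20 windows and in 6.02% of 32851 windows of all genes. AGGTCA, searched on both strands so that TGACCT also counts, was in 4 of 20 and in 14.0% of all windows. Counted by gene, CACGTG was in at least 1 window of 4 of 15 clock genes and of 6.86% of 27025 genes. For AGGTCA the same counts were 4 of 15 and 15.8%. A window of each of 4 genes whose levels did not overlap (for Arntl, 1 of 2) is shown 5′ to 3′ on the gene's strand, with these motifs in capitals. The windows are Arntl on the plus strand (chr7:113207215-113207464), Cry1 on the minus strand (chr10:85185055-85185304), Nr1d2 on the minus strand (chr14:18239107-18239356) and Dbp on the plus strand (chr7:45704997-45705246). Starts are those of RefSeq, and for Dbp and Cry1 the GENCODE gene begins inside the window.
Arntl: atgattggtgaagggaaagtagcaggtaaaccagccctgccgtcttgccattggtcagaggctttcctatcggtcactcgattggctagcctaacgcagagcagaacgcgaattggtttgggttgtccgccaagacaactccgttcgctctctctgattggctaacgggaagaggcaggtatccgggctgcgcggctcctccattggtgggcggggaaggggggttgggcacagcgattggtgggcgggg
Cry1: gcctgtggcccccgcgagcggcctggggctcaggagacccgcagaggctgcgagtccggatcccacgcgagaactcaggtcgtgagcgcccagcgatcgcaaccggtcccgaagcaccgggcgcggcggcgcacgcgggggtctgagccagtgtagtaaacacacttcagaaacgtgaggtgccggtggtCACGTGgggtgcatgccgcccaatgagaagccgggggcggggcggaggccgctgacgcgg
Nr1d2: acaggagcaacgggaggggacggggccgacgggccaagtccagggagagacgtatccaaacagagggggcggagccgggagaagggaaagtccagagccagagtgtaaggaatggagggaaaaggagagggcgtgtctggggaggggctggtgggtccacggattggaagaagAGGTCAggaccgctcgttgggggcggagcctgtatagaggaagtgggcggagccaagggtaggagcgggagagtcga
Dbp: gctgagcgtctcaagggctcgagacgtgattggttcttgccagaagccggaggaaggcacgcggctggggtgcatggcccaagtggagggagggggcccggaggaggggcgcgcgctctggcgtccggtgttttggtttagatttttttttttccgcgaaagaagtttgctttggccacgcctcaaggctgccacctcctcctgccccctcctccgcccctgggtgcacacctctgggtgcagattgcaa
Cry1, lower in the libraries labelled Kdm5c+/-, held 1 CACGTG in this window, and Nr1d2, higher there, held 1 AGGTCA. Dbp and Arntl, the clock genes with the largest difference in each direction, held neither in these windows, which says nothing of sites elsewhere. Among windows not shown, CACGTG was in those of Bhlhe41, Per1 and Tef, whose levels overlapped between the labels. AGGTCA was in a window of Clock, which was lower without overlap, and in windows of Nfil3 and Per1, which overlapped. A match is a stretch of letters and not a measured binding site.

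The genes with the smallest p outside the clock came from many processes. Among those that were higher, Lrg1 (chr17:56119678-56122001), a secreted glycoprotein known for its part in blood vessel growth and the acute-phase response, stood at 754, 615 and 489 CPM against 159, 166 and 280.0 CPM. All 3 libraries labelled Kdm5c+/- lay above wild type, with a difference of 1.64 ± 0.26. Tmem120a, a membrane protein abundant in fat cells, was at 313, 322 and 293 CPM against 217, 204 and 214 CPM (0.55 ± 0.08). Fxyd1, which encodes phospholemman, a regulator of the sodium pump, was at 179.9, 187 and 161 CPM against 122, 108 and 131 CPM (0.55 ± 0.10). Piga, an enzyme of the first step of GPI anchor synthesis that lies on the X chromosome, was at 5.76, 7.80 and 7.60 CPM against 3.35, 3.94 and 3.48 CPM (0.80 ± 0.15). The small gene Grcc10 was at 66.7, 64.1 and 59.3 CPM against 46.7, 46.4 and 47.1 CPM (0.43 ± 0.07). Its 3 wild-type values were nearly equal, and the groups were well apart. The remaining genes of this set were Adrb3, Myh14, Dbp, Ndufa1, Phyhd1, Rps26, Zfp783, Isoc2b, Pyroxd2 and Pmf1.

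The genes with the smallest p among those that were lower were likewise of many kinds. Kif5b, the heavy chain of the conventional kinesin motor, was at 135, 142 and 141 CPM against 180.3, 186 and 185 CPM (-0.40 ± 0.07). Efr3a, which anchors a phosphatidylinositol 4-kinase at the plasma membrane, was at 174, 181 and 192 CPM against 238, 259 and 257 CPM (-0.46 ± 0.08). Hps3, a subunit of a complex that forms lysosome-related organelles, was at 18.1, 15.7 and 16.1 CPM against 24.6, 24.1 and 23.4 CPM (-0.51 ± 0.09). In each of these genes the 3 values of a label lay close together and the labels did not overlap. Slc39a10, a zinc importer, was at 19.7, 21.1 and 19.6 CPM against 32.7, 27.7 and 30.1 CPM (-0.56 ± 0.09). Skil (chr3:31095058-31122577), which encodes SnoN, a repressor of SMAD proteins, had the smallest p of all genes in limma (9.45e-05) and stood at 23.0, 27.5 and 24.7 CPM against 39.6, 42.6 and 42.1 CPM (-0.71 ± 0.09). Trps1, a GATA-type repressor richer in mature adipocytes than in stromal cells, was at 65.5, 67.5 and 74.7 CPM against 101, 107 and 113 CPM (-0.62 ± 0.08). Others with a small p were more abundant in stromal vascular cells. Ptprb, a phosphatase of endothelial cells, was at 28.0, 22.6 and 37.6 CPM against 66.4, 59.4 and 54.5 CPM (-1.03 ± 0.18) and was scarce in mature adipocyte relative to stromal vascular libraries (log2 ratio -5.21). Igsf10 was at 10.6, 14.5 and 15.9 CPM against 27.2, 28.3 and 24.1 CPM (-0.93 ± 0.15). Ackr3, Itm2a, Cry1, Zfp217, Phip, Dcp2 and Utp20 made up the rest of the 15.

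**Figure D2:**
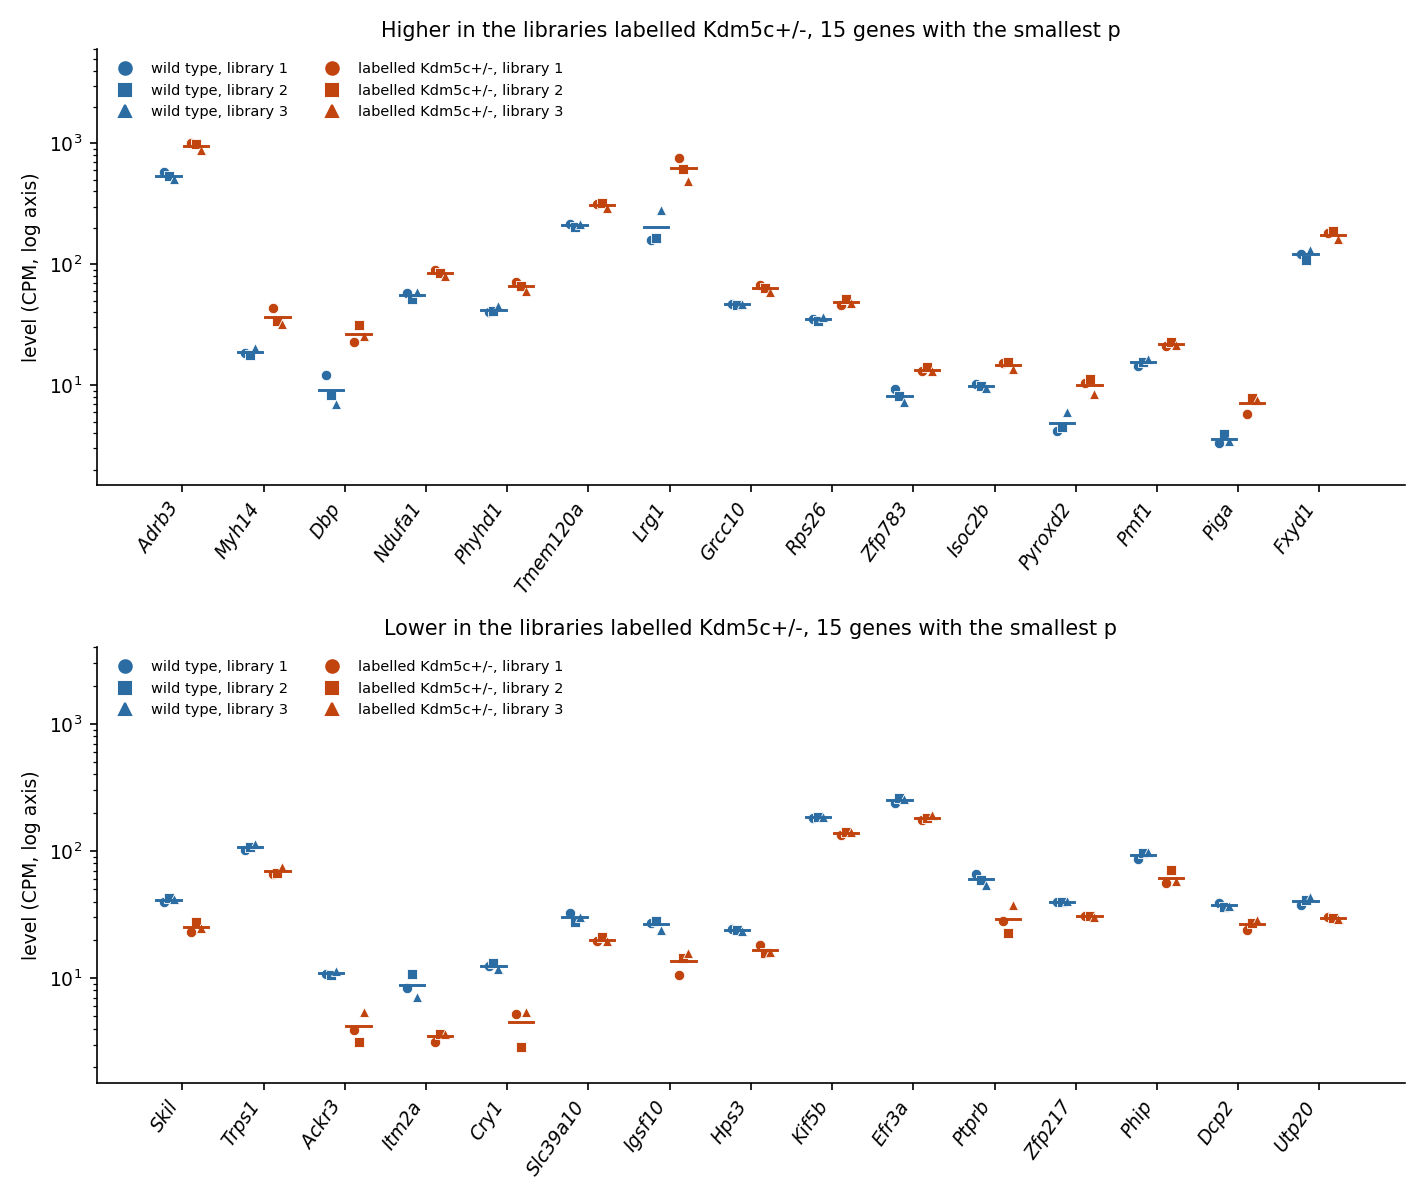
Level (CPM, log axis) in each mature adipocyte library of the 15 genes with the smallest p in each direction among genes with a mean of at least 5 CPM, higher above and lower below, with wild type in blue, the libraries labelled Kdm5c+/- in red and bars at means of 3. For every gene shown the 3 points of one label lie apart from the 3 of the other, as genes chosen by p will tend to do.

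Some of the largest differences rested on only some of the libraries. Mycl (chr4:122995652-123002485), a relative of Myc, was at 24.4, 24.6 and 5.68 CPM against 2.36, 3.23 and 4.06 CPM. Libraries 1 and 2 labelled Kdm5c+/- stood far above all others, while library 3 was only a little above wild type, and the difference was 1.97 ± 0.52. The interferon-induced GTPase Gbp11 was at 29.6, 33.6 and 14.8 CPM against 10.1, 9.78 and 11.5 CPM (1.16 ± 0.28), with the same library lowest of the 3. Without that library, limma called 3 genes, and Mycl and Gbp11 were among them (adjusted p = 0.0491 each). Rhou, a small GTPase, was at 18.3, 11.9 and 7.80 CPM against 5.25, 5.27 and 4.56 CPM (1.11 ± 0.27). Clstn3, which encodes calsyntenin 3 and has a form made in fat cells that acts at the lipid droplet, was at 78.3, 99.3 and 76.6 CPM against 59.2, 30.4 and 40.8 CPM (0.99 ± 0.24). Of the lower genes, Pcdh19, an X-linked protocadherin, was at 9.25, 7.56 and 15.5 CPM against 17.7, 24.6 and 33.1 CPM (-1.17 ± 0.30). Tspan13, a tetraspanin, was at 6.13, 2.88 and 7.01 CPM against 13.0, 11.9 and 11.0 CPM (-1.10 ± 0.27).

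Of 11 lipolysis genes, all tested, 7 were higher, with 3 at unadjusted p under 0.05 (5.57% of all genes) and 1 lower at that level (9.01% of all genes), and a median difference of 0.19. Apart from this list, 6 adrenergic receptor genes were tested, of which 4 were higher and 2 lower. At unadjusted p under 0.05, 2 of them were higher and 0 lower. The beta-3 adrenergic receptor Adrb3 (chr8:27225776-27250616), a main receptor for stimulating lipolysis in mouse fat, was at 1001, 996 and 882 CPM against 576, 532 and 510.1 CPM (0.83 ± 0.11). Of 3 lipases 2 were higher. Pnpla2, which encodes ATGL, the enzyme that opens triglyceride breakdown, was at 5550.4, 5749.6 and 4038 CPM against 3238, 3785 and 3941 CPM (0.47 ± 0.19), and library 3 labelled Kdm5c+/- was barely above wild type. The hormone-sensitive lipase Lipe was at 3197, 3601 and 3206 CPM against 2729, 3076 and 2513 CPM (0.27 ± 0.14). Abhd5, the activator of ATGL also known as CGI-58, was at 269.8, 255 and 207 CPM against 179.6, 167 and 223 CPM (0.36 ± 0.15), with overlap. Hilpda, an inhibitor of ATGL, went the other way, at 4.88, 4.36 and 4.35 CPM against 6.82, 8.90 and 5.72 CPM (-0.54 ± 0.17). Downstream of the receptor the pathway was not shifted as a block: of 10 tested G proteins and cyclases 2 were higher, and of 11 kinases and phosphodiesterases 4, with medians on CPM of -0.08 and -0.01. Prkar2a, a regulatory subunit of protein kinase A, was at 43.6, 42.5 and 37.1 CPM against 51.1, 47.8 and 48.9 CPM (-0.26 ± 0.09), and the inhibitory G protein Gnai3 at 74.9, 72.4 and 70.5 CPM against 79.6, 89.7 and 86.2 CPM (-0.23 ± 0.08). The lipolysis median was 0.09 without the library labelled Kdm5c+/- 1 and 0.01 without wild type 2. The 3 lipolysis genes higher at unadjusted p under 0.05 became 0 without the library labelled Kdm5c+/- 1, without the one labelled 2 or without wild type 1, and 1 without wild type 2 or 3.

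On the lipid droplet, 5 of 6 tested genes of droplet fusion and assembly were higher, and of 5 perilipins 2 were higher on CPM and 3 under median-of-ratios scaling. Cidec, which fuses droplets into the single large one of white fat, was at 3339.8, 4829 and 3432 CPM against 2239.7, 2844 and 2599.7 CPM (0.58 ± 0.19). Bscl2, which encodes seipin, needed for droplets to form, was at 436, 393 and 354 CPM against 296, 230.5 and 312 CPM (0.50 ± 0.14). Both showed no overlap. Plin1, the main coat protein of fat cell droplets, was at 2697, 2695 and 2959.8 CPM against 2755, 2841 and 2775 CPM, with overlap.

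Of 18 genes of fatty acid uptake and activation, 3 were higher and 2 lower at unadjusted p under 0.05, against 5.57% and 9.01% of all genes. The 3 became 0 without the library labelled Kdm5c+/- 2 and 1 without the one labelled 1 or without wild type 1. They became 2 without wild type 2 or 3, and 4 without the library labelled Kdm5c+/- 3. Slc27a1, the fatty acid transporter FATP1, was at 1186, 1501 and 679 CPM against 487, 609 and 652 CPM (0.88 ± 0.29). The excess over wild type was large in libraries 1 and 2 and slight in library 3. Acsl1, the main acyl-CoA synthetase of fat cells, was at 3605, 5232 and 3554 CPM against 3150.1, 2455 and 2728 CPM (0.56 ± 0.20), while its relative Acsl4, which prefers arachidonate, was lower at 29.6, 24.4 and 31.8 CPM against 41.1, 37.4 and 43.4 CPM (-0.50 ± 0.12). The fatty acid carrier Fabp4 was at 13433, 12512 and 12271 CPM against 9435, 9889 and 10068 CPM (0.38 ± 0.15). Lpl, the lipase that frees fatty acids from lipoproteins, was at 8939, 8583 and 11403 CPM against 12062, 11580.5 and 10792 CPM (-0.26 ± 0.18), with overlap. In triglyceride synthesis, the acyltransferases Agpat3, at 356, 341 and 315 CPM against 284, 266 and 293 CPM (0.26 ± 0.09), and Agpat1, at 108, 98.4 and 91.4 CPM against 85.8, 80.0 and 86.8 CPM (0.23 ± 0.09), did not overlap. Pck1, which supplies glycerol 3-phosphate and is known to be induced by fasting, was at 3258, 8173 and 1907 CPM against 1652, 2066 and 1269 CPM (1.18 ± 0.51), with library 2 labelled Kdm5c+/- far above the rest.

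Of 22 genes of fatty acid synthesis tested, 0 had an unadjusted p under 0.05, and in 0 did the libraries not overlap. At that level, 1 was higher and 1 lower without the library labelled Kdm5c+/- 3. Levels varied widely within each label. Fasn, the fatty acid synthase, was at 22446, 12418 and 15882 CPM and 31397, 6378 and 18340.0 CPM, and Acly, which makes its acetyl-CoA, at 2703, 753 and 1708 CPM and 4063, 579 and 2201 CPM. Library 2 was the lowest of its label for both genes in both groups. Acacb, the acetyl-CoA carboxylase of the mitochondrial surface, also spread widely, at 556, 400.0 and 145 CPM against 242, 51.4 and 172 CPM (1.30 ± 0.69). Of 18 secreted adipokines 12 were lower, against 56.9% of all genes, with a median of -0.11. At unadjusted p under 0.05, 1 was higher and 1 lower, against 5.57% and 9.01% of all genes. Adipoq, adiponectin, was at 4602, 4514 and 4411 CPM against 4169, 4299.9 and 3993 CPM (0.12 ± 0.13, turning to -0.12 with quantile normalization). Retn, resistin, was at 1761, 1553 and 1738 CPM against 1383, 1222 and 1469.7 CPM (0.31 ± 0.13).

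Of 26 tested genes of fatty acid oxidation, 20 were higher, against 43.1% of all genes, with a median of 0.16. At unadjusted p under 0.05, 5 were higher and 1 was lower, against 5.57% and 9.01% of all genes. Acadl, the long-chain acyl-CoA dehydrogenase, was at 472, 453 and 387 CPM against 361, 344 and 347 CPM (0.31 ± 0.11). Eci1, an enoyl-CoA isomerase, was at 158, 131 and 116 CPM against 106, 107 and 105 CPM (0.33 ± 0.12), and the acylcarnitine carrier Slc25a20 at 87.9, 66.8 and 61.5 CPM against 58.0, 53.0 and 55.5 CPM (0.36 ± 0.13). In each of these 3 genes library 1 labelled Kdm5c+/- was highest and all 3 lay above wild type. Of 16 peroxisome biogenesis genes 12 were higher, 3 at unadjusted p under 0.05 (5.57% of all genes) and 0 lower at that level, with the smallest p for Pex11a, which divides peroxisomes, at 34.6, 32.4 and 30.9 CPM against 26.4, 21.2 and 24.8 CPM (0.42 ± 0.10). Of 31 tested genes of the citric acid cycle and pyruvate, 21 were higher, with a median of 0.05. At unadjusted p under 0.05, 2 were higher and 0 lower, against 5.57% and 9.01% of all genes. In this list Pdk2, the kinase that shuts pyruvate dehydrogenase, was at 190.2, 253 and 126 CPM against 108, 107 and 105 CPM (0.77 ± 0.23). Idh3g, a subunit of isocitrate dehydrogenase, was at 266, 256 and 242 CPM against 221, 203 and 208 CPM (0.27 ± 0.08). Without the library labelled Kdm5c+/- 1 the median of fatty acid oxidation genes was 0.10, and 0 had an unadjusted p under 0.05. The same count was 0 without wild type 2 and 2 without wild type 3. The 3 peroxisome genes became 1 without the library labelled Kdm5c+/- 1 or without any 1 of the wild-type libraries, and 5 without the library labelled Kdm5c+/- 3.

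Nuclear genes of the respiratory chain were nearly all higher, by small amounts. Complex I passes electrons from NADH to ubiquinone, complex III onward to cytochrome c and complex IV to oxygen, while complex II belongs to the citric acid cycle and ATP synthase uses the gradient. Of 36 complex I genes tested, 32 were higher and 15 had an unadjusted p under 0.05 with higher levels, against 5.57% of all genes. For complex III, 9 of 9 were higher and 4 at that level, for complex IV 12 of 13 and 9, and for ATP synthase 13 of 14 and 4. For complex II, 4 of 4 were higher by 0.04 to 0.08, and 0 reached that level. No respiratory gene was lower at that level. Medians were 0.18 for complex I, 0.06 for complex II, 0.27 for complex III, 0.31 for complex IV and 0.10 for ATP synthase, against -0.03 for all genes.

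The subunits with the smallest p included several small accessory ones. Ndufa1, an X-linked complex I subunit, was at 88.9, 84.4 and 80.2 CPM against 58.0, 51.3 and 58.6 CPM (0.59 ± 0.08). Ndufs6 and Ndufa5 followed it at 0.32 ± 0.08 and 0.26 ± 0.07. In complex IV, Cox6a1 was at 491, 423 and 432 CPM against 319, 313 and 333 CPM (0.48 ± 0.10), Cox5b at 131, 129 and 119 CPM against 101, 84.5 and 89.0 CPM (0.46 ± 0.09) and Cox6c at 176, 158 and 153 CPM against 125, 121 and 124 CPM (0.39 ± 0.08). All 3 libraries labelled Kdm5c+/- stood above all 3 wild-type ones for these genes. In complex III, Uqcrb was at 61.3, 57.8 and 59.9 CPM against 50.3, 37.9 and 40.4 CPM (0.48 ± 0.11), and in ATP synthase Atp5d at 283, 264 and 272 CPM against 232, 211 and 225 CPM (0.29 ± 0.08). Atp5b, the beta subunit of ATP synthase, was at 2105, 1948 and 1910.2 CPM against 1923, 1944 and 1886 CPM, with overlap. In the stromal vascular libraries the medians of complex I and of complexes II to V were 0.04 and 0.03. The difference between fractions did not pass for any of them (adjusted p of 0.445 for Cox5b and 0.500 for Ndufa1, limma). Counts depended on single libraries: for complex I, unadjusted p was under 0.05 with higher levels for 5 genes without the library labelled Kdm5c+/- 1, 7 without wild type 2 and 6 without wild type 3, and the median was lowest, 0.11, without the first of these. Without both libraries numbered 2 it was 0.17, and 0.21 for complexes II to V. The summed level of adipocyte markers, given above, was higher with them. Of these 24 markers, 17 were higher and 7 lower, with a median of 0.18. At unadjusted p under 0.05, 6 were higher and 0 lower, against 5.57% and 9.01% of all genes. The part of these markers in the respiratory levels was not tested.

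**Figure D3:**
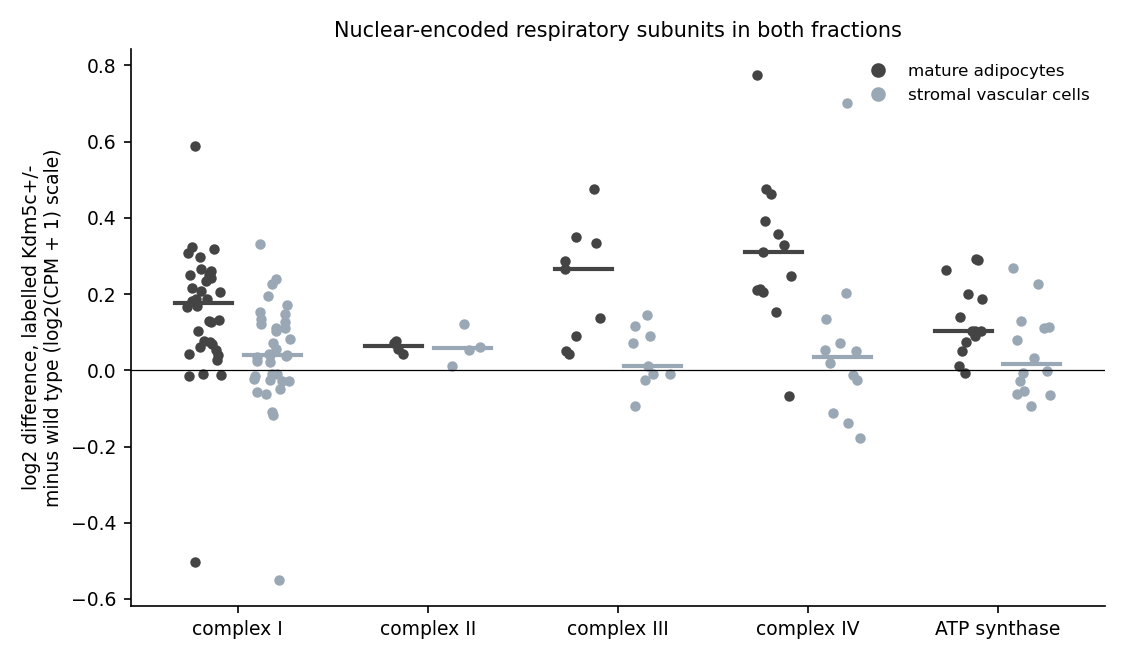
Log2 difference (labelled Kdm5c+/- minus wild type, log2(CPM + 1) scale) of each nuclear-encoded respiratory subunit tested, by complex, in mature adipocytes (dark) and in stromal vascular cells (light), with bars at the medians. In mature adipocytes the medians are 0.18, 0.06, 0.27, 0.31 and 0.10 from complex I to ATP synthase, and in stromal vascular cells they lie between 0.01 and 0.06.

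Ribosomal protein genes leaned the same way by less. Of 76 mitochondrial ribosomal protein genes tested 64 were higher, with a median of 0.10. At unadjusted p under 0.05, 10 were higher and 0 lower, against 5.57% and 9.01% of all genes. Mrpl41 was at 34.6, 36.9 and 39.9 CPM against 27.5, 27.3 and 29.0 CPM (0.40 ± 0.08) and Mrps24 at 38.8, 33.0 and 33.4 CPM against 28.5, 25.5 and 26.8 CPM (0.37 ± 0.09), both without overlap. Of 78 cytosolic ribosomal protein genes 58 were higher, 11 at that level and 0 lower, with a median of 0.12. Rps26 was at 46.1, 51.7 and 48.2 CPM against 35.5, 33.9 and 36.5 CPM (0.45 ± 0.08), again without overlap. Many ribosomal protein genes have near-identical processed copies, so reads may be split between them and single values are uncertain. The mitochondrial median was 0.07 without the library labelled Kdm5c+/- 1 and 0.06 without wild type 2.

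In the endoplasmic reticulum, chaperones and a sensor of unfolded protein differed in opposite directions. Calr, the calcium-binding chaperone calreticulin, was at 653, 690.3 and 537 CPM against 394, 372 and 449 CPM (0.63 ± 0.13). Creld2, a folding factor induced by unfolded protein, was at 15.7, 15.3 and 12.4 CPM against 11.3, 10.6 and 11.0 CPM (0.37 ± 0.11). Atf6, the membrane-bound sensor that activates chaperone genes, was lower, at 73.2, 72.3 and 71.1 CPM against 87.4, 93.1 and 97.4 CPM (-0.35 ± 0.07). None of these overlapped between the labels. Of 28 folding genes tested, 17 were higher. At unadjusted p under 0.05, 6 were higher and 1, Atf6, was lower, against 5.57% and 9.01% of all genes. Hspa5, the chief chaperone of the compartment, was at 459, 477 and 429.5 CPM against 440.1, 442 and 462 CPM, with overlap.

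Of 27 nuclear receptors tested 12 were higher, against 43.1% of all genes. At unadjusted p under 0.05, 2 were higher and 4 lower, against 5.57% and 9.01% of all genes. Nr1h3, the sterol sensor LXR alpha, was at 133, 135 and 131 CPM against 106, 93.5 and 107 CPM (0.38 ± 0.08). The glucocorticoid receptor Nr3c1 was lower, at 240.2, 195 and 314 CPM against 368, 383 and 382 CPM (-0.62 ± 0.17). Genes that glucocorticoids are known to induce were measured too. Fkbp5, a chaperone of the receptor and one of its best known targets, was at 29.6, 80.5 and 23.5 CPM against 9.47, 10.2 and 21.1 CPM (1.52 ± 0.49). Library 2 labelled Kdm5c+/- was far above the rest, and library 3 lay just above wild type 3. The metallothionein Mt1 was at 151, 223 and 165 CPM against 135, 147 and 120.2 CPM (0.41 ± 0.16). Of 15 genes of this kind 11 were higher, with 2 at unadjusted p under 0.05 (5.57% of all genes) and 0 lower at that level, and a median of 0.18. Without the library labelled Kdm5c+/- 2, 8 were higher, with 1 higher and 1 lower at that level and a median of 0.02. Without wild type 1, 8 were higher, 0 at that level, with a median of 0.04. Pparg, the master regulator of fat cells, was at 377, 440.0 and 475 CPM and 462, 347 and 483 CPM, with overlap.

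Of the acute-phase genes, the plasma protein gene Orm1 was at 311, 260.1 and 279 CPM against 162, 102 and 182 CPM (0.96 ± 0.21), without overlap, and had a difference of 0.97 in the stromal vascular libraries. Haptoglobin, Hp, was at 1368, 1031 and 2008 CPM against 763, 839.7 and 1240.0 CPM (0.61 ± 0.29), with overlap. Of 57 interferon-induced genes tested, 42 were higher, 11 at unadjusted p under 0.05, and 2 were lower at that level, against 5.57% and 9.01% of all genes, with a median of 0.13. Irf7, the transcription factor that amplifies the interferon response, was at 55.5, 64.5 and 33.1 CPM against 22.9, 18.8 and 28.0 CPM (1.07 ± 0.26). Zbp1, a sensor of Z-form nucleic acid, was at 15.2, 18.9 and 13.4 CPM against 6.99, 6.59 and 10.2 CPM (0.92 ± 0.19), and Ifi27 at 521, 461 and 464 CPM against 384, 378 and 399 CPM (0.31 ± 0.09). Libraries 1 and 2 labelled Kdm5c+/- were highest for Irf7 and Zbp1, and library 3 was nearest to wild type. The same direction held in the stromal vascular libraries, at 0.66 for Irf7 and 0.79 for Zbp1.

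Most genes of blood vessel cells were lower. Of 14 endothelial genes tested 14 were lower, 10 of them at unadjusted p under 0.05 against 9.01% of all genes, with a median of -0.72. Kdr, the main receptor of vascular endothelial growth factor, was at 32.4, 23.1 and 36.2 CPM against 69.2, 51.0 and 48.2 CPM (-0.86 ± 0.20). Flt1, a second receptor of the family, was at 18.7, 14.4 and 20.7 CPM against 32.6, 29.3 and 27.0 CPM (-0.70 ± 0.14), and the junction gene Cdh5 at 60.8, 35.3 and 64.8 CPM against 97.4, 92.3 and 82.6 CPM (-0.79 ± 0.22). No library labelled Kdm5c+/- reached a wild-type one, and library 2 was the lowest each time. Of 11 pericyte and smooth muscle genes tested 9 were lower, 6 at that level, with a median of -0.93. Notch3, the Notch receptor of mural cells, was at 10.4, 5.72 and 13.2 CPM against 17.7, 21.5 and 21.1 CPM (-1.04 ± 0.27), and Abcc9, a channel subunit of pericytes, at 15.2, 16.6 and 19.7 CPM against 25.2, 36.7 and 25.3 CPM (-0.72 ± 0.17). The contractile actin Acta2 was at 28.2, 21.8 and 131 CPM against 99.2, 311 and 161 CPM (-1.95 ± 0.71), and its groups overlapped.

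These vessel genes belong to cells that the fractionation leaves mostly in the pellet. The endothelial sum in mature adipocyte libraries was 3.14% of that in stromal vascular libraries, the pericyte sum 9.45% and the macrophage sum 2.03%. The progenitor sum was 79.0% and the skeletal muscle sum 314%. The median log2 ratio of the 18 progenitor genes tested was -5.27, so genes not scarce in mature adipocytes weigh on that sum. It is therefore no measure of carried-over progenitor cells. Defining markers of lymphocytes, mammary epithelium and red blood cells were nearly absent: 12 of 14, 11 of 12 and 3 of 4 of them stayed under 1 CPM in all 6 libraries. Pericyte sums were 377, 274 and 486 CPM against 421, 669 and 510 CPM, and progenitor sums 14538, 16787 and 17867 CPM against 20525, 28265 and 18914 CPM. Macrophage sums were 42.0, 43.4 and 46.9 CPM against 42.4, 127 and 49.6 CPM, so that wild type 2 stood apart. Schwann cell sums were 135 to 237 CPM against 229 to 263 CPM, lymphocyte sums 3.48 to 4.70 CPM against 2.43 to 12.1 CPM, mammary sums 18.6 to 27.7 CPM against 17.3 to 27.4 CPM and skeletal muscle sums 26.8 to 49.1 CPM against 31.7 to 90.6 CPM. The part of carried-over stromal cells in the lower levels was not tested. Grouped by how scarce a gene was in mature adipocytes relative to stromal vascular cells, the differences moved with scarcity. Of 540 genes at a log2 ratio of -4 or less, 31 (5.74%) were higher, with a median difference of -0.49, while the same genes had a median of -0.12 in the stromal vascular libraries. None (0) of them was higher at unadjusted p under 0.05 and 204 (37.8%) were lower, against 5.57% and 9.01% of all genes. Of 659 genes at a ratio over 2, 390 (59.2%) were higher, with a median of 0.07. Of all genes tested, 43.1% were higher.

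**Figure D4:**
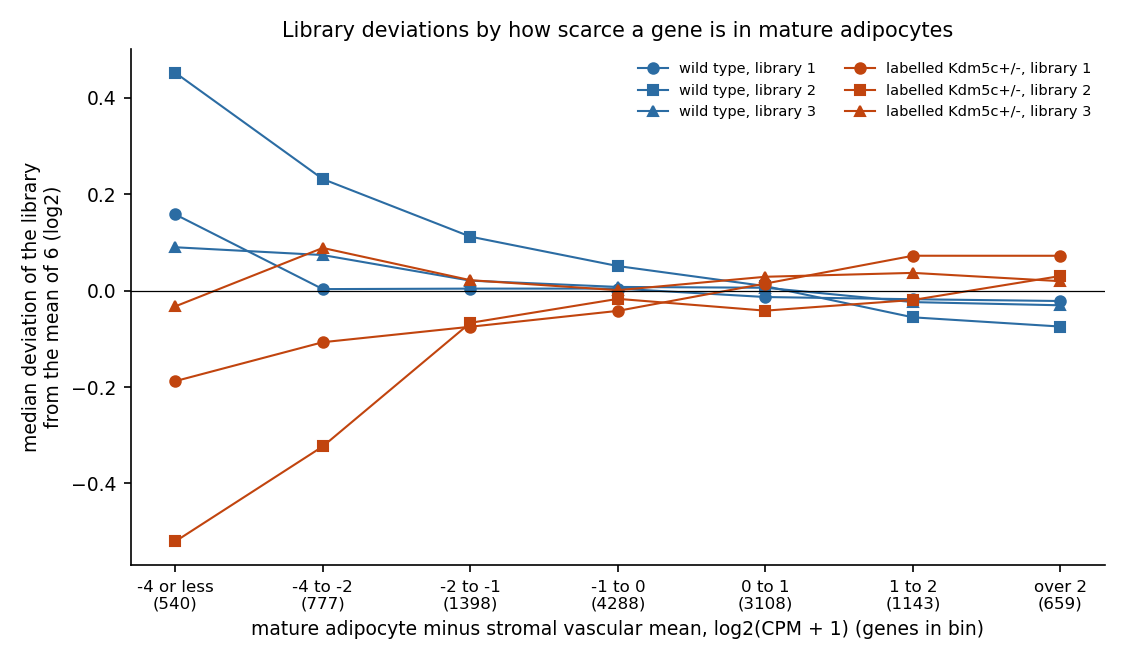
Median deviation of each mature adipocyte library from the mean of all 6 (log2(CPM + 1)), for genes in 7 bins of the log2 ratio of mature adipocyte to stromal vascular levels, with wild type in blue and the libraries labelled Kdm5c+/- in red. For the genes scarcest in mature adipocytes, library 2 labelled Kdm5c+/- lies at -0.52 and wild type 2 at 0.45, the ends of the range, with library 3 labelled Kdm5c+/- at -0.03 and wild type 3 at 0.09.

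Growth factors of vessels and genes of the TGF-beta pathway were mostly lower. Of 17 angiogenic growth factors tested 14 were lower, 7 at unadjusted p under 0.05, and 0 were higher at that level, with a median of -0.50. Fgf2, which was more abundant in mature adipocyte than in stromal vascular libraries (log2 ratio 1.85), was at 14.8, 11.6 and 15.4 CPM against 18.2, 23.0 and 20.1 CPM (-0.53 ± 0.14). Apln, the peptide apelin, was at 2.68, 1.76 and 1.92 CPM against 5.91, 4.42 and 3.55 CPM (-0.84 ± 0.20). Vegfa, the main growth factor of vessels, was at 469, 463 and 458 CPM and 558, 456 and 355 CPM, with overlap, and Vegfb at 230.3, 220.2 and 220.0 CPM against 202, 214 and 184 CPM (0.16 ± 0.09). Of 42 TGF-beta and SMAD pathway genes tested 36 were lower, 13 at unadjusted p under 0.05, and 1 was higher at that level, with a median of -0.25. By role, 10 of 10 ligands were lower, 1 of them at that level, 11 of 12 receptors, 6 at that level, and 15 of 20 SMADs and their partners, 6 at that level, against 9.01% of all genes. The receptor-regulated Smad2 was at 53.8, 47.5 and 55.6 CPM against 70.4, 65.4 and 63.3 CPM (-0.34 ± 0.09), and the BMP receptor Bmpr1a at 140.0, 125 and 139.6 CPM against 146, 199 and 184 CPM (-0.37 ± 0.13). The gene that was higher was Ltbp2, a binding protein of the matrix, at 24.4, 16.2 and 16.1 CPM against 12.6, 10.9 and 11.3 CPM (0.63 ± 0.17). None of Smad2, Bmpr1a and Ltbp2 overlapped between the labels.

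Of 24 Wnt pathway genes tested 20 were lower, against 56.9% of all genes, and 4 at unadjusted p under 0.05, against 9.01%, with 0 higher at that level and a median of -0.20. The 4 became 7 without the library labelled Kdm5c+/- 3. The receptor Fzd4 was at 460.4, 471 and 589 CPM against 647, 891 and 724 CPM (-0.57 ± 0.16) and Axin2, a feedback inhibitor and a standard readout of the pathway, at 33.5, 27.5 and 45.7 CPM against 53.5, 51.8 and 58.2 CPM (-0.63 ± 0.18). Library 3 labelled Kdm5c+/- was the nearest to wild type for both. In the matrix, counts differed from list to list. Of 28 crosslinking and assembly genes 21 were lower, 7 at that level, with a median of -0.35. Of 22 collagens 18 were lower, 3 at that level, and 1 was higher at it. Of 39 matrix proteases and inhibitors 27 were lower, 6 at that level, and 3 were higher at it. Of 34 basement membrane and integrin genes 26 were lower, 5 at that level, and 2 were higher at it. Genes higher at that level were 5.57% of all genes. Typical members were scarcer here than in stromal vascular cells. Their median log2 ratio was -3.93 for crosslinking and assembly, -2.39 for collagens, -2.04 for proteases and inhibitors and -1.82 for basement membrane and integrins. Lox, lysyl oxidase, which crosslinks collagen and elastin, was at 164, 125 and 206 CPM against 229, 304 and 259.9 CPM (-0.70 ± 0.20). Unlike the typical member of its list, it was as abundant in mature adipocytes as in stromal vascular cells (log2 ratio 0.02). The aggrecanase Adamts5 (chr16:85856173-85901828), also not scarce here (log2 ratio 0.67), was at 302, 191 and 604 CPM against 662, 1241 and 1000.0 CPM (-1.52 ± 0.43). Timp3, an inhibitor of such proteases, was at 63.0, 51.0 and 120.0 CPM against 140.3, 182 and 126 CPM (-1.01 ± 0.31). Col3a1, type III collagen, was at 899, 918 and 1266 CPM against 1375, 1362 and 1302 CPM (-0.41 ± 0.16) and had a difference of 0.63 in the stromal vascular libraries, with an adjusted p of 0.509 for the difference between fractions (limma). Adamts2, which trims procollagen, was higher, at 242, 251 and 252 CPM against 176, 173 and 218 CPM (0.40 ± 0.11).

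Both libraries numbered 2 weighed on these lists. Without both of them, the median moved from -0.72 to -0.44 for endothelial, -0.93 to -0.49 for pericyte, -0.50 to -0.18 for angiogenic, -0.25 to -0.15 for TGF-beta, -0.35 to -0.07 for matrix crosslinking and -0.20 to -0.06 for Wnt genes, and 1 of the 14 endothelial genes was then higher. Without the library labelled Kdm5c+/- 2 alone, the endothelial median was -0.46, the angiogenic -0.28 and the matrix crosslinking -0.19. Without wild type 2 alone, the last was also -0.19. Counts of genes lower at unadjusted p under 0.05 moved too when 1 library was left out. For endothelial genes the 10 ran from 6 (without wild type 2) to 11 (without the library labelled Kdm5c+/- 3), and for TGF-beta genes the 13 from 4 to 17 with the same libraries left out. For angiogenic genes the 7 ran from 5 (without wild type 2 or the libraries labelled Kdm5c+/- 1 or 2) to 13 (without the one labelled 3), and for matrix crosslinking genes the 7 from 1 (without the one labelled 1) to 13 (without the one labelled 3). Among genes that were higher, the 17 of complexes II to V became 10 without the library labelled Kdm5c+/- 1, the 10 of mitochondrial ribosomal proteins became 5 without wild type 2 and the 11 of cytosolic ones 5 without wild type 1. The 11 interferon-induced genes became 7 without the library labelled Kdm5c+/- 1 and 20 without the one labelled 3, and the 6 folding genes became 2 without the one labelled 1. Medians kept their sign in each of these fits.

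**Figure D5:**
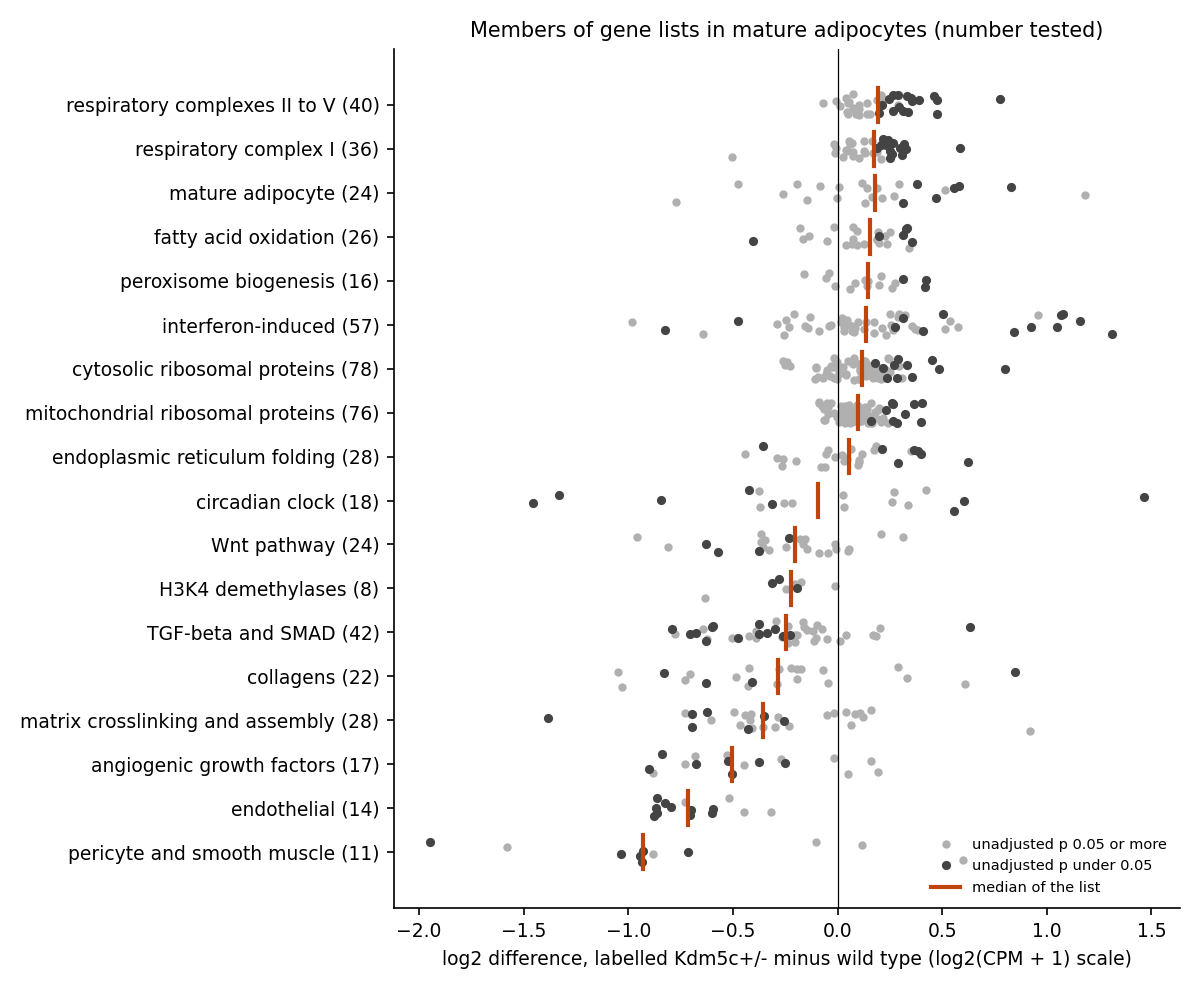
Log2 difference (labelled Kdm5c+/- minus wild type, log2(CPM + 1) scale) of every tested member of 18 gene lists in mature adipocytes, dark where the unadjusted p was under 0.05 and light otherwise, with a red bar at the list's median. Respiratory genes cluster narrowly above 0 with medians of 0.18 and 0.19, clock genes spread from -1.46 to 1.46, and endothelial genes lie wholly below 0.

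Other regulators of the histone mark that KDM5C erases were measured too. Of 8 genes of the other demethylases of lysine 4 and their CoREST partners, 8 were lower on CPM and 7 under median-of-ratios and quantile scaling, with a median of -0.22. On CPM, 56.9% of all genes were lower. Of the 8, 3 were lower and 0 higher at unadjusted p under 0.05, against 9.01% and 5.57% of all genes. Kdm1b, also called LSD2, was at 28.9, 27.9 and 30.5 CPM against 34.1, 37.9 and 37.1 CPM (-0.31 ± 0.08), and Kdm5a, another member of the KDM5 family, at 69.9, 87.7 and 77.9 CPM against 94.3, 102 and 89.8 CPM (-0.28 ± 0.10). Neither overlapped. Of 19 genes of the methyltransferase complexes that write the mark, 9 were higher on CPM and 13 under median-of-ratios scaling. At unadjusted p under 0.05, 3 were higher and 1 lower on CPM, against 5.57% and 9.01% of all genes. The 3 became 0 without wild type 1 and 1 without wild type 2 or 3. Cxxc1, which guides a complex to CpG islands, was at 46.1, 58.0 and 42.3 CPM against 36.3, 36.9 and 38.4 CPM (0.37 ± 0.12) and the enzyme Setd1a at 104, 129 and 97.3 CPM against 89.0, 86.0 and 91.1 CPM (0.30 ± 0.11). The scaffold Hcfc1, which is X-linked, was lower, at 149, 158 and 174 CPM against 195, 194 and 212 CPM (-0.32 ± 0.09). The X chromosome as a whole did not stand out: 15.1% of its 350 genes tested had an unadjusted p under 0.05, within the range of 11.5% to 20.1% over chromosomes, and 14.6% of all genes.

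The genotype difference was compared with that in stromal vascular cells in all 12 libraries. The test of the difference between the 2 differences called 0 of 14193 genes in limma (0.0%), with 1267 at unadjusted p under 0.05 (8.93%) and a lowest adjusted p of 0.445. No gene can therefore be called particular to mature adipocytes. Side by side, Rps26 had 0.45 in mature adipocytes and -0.13 in stromal vascular cells, Itm2a -1.11 and 0.06, and Igsf10 -0.93 and 0.24. These 3 genes were among those named here with the smallest p of this test. Orm1 stood at 0.96 and 0.97. Without the library labelled Kdm5c+/- 3, this test called 7 genes.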

How the data were processed

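The deposited table holds CPM values (reads of a gene per 1000000 reads of its library) for 16670 genes in 12 libraries, computed by the authors. Per the labels' protocols, libraries were strand-specific and made from mRNA. The genome build was GRCm38, and edgeR 3.26.8 and STAR 2.7.2a were among the tools, per the submitters' processing notes. How reads were counted, and on which annotation, is not given in the sources used here. Every library sums to 1000000 CPM. All values of the 6 mature adipocyte libraries (100%) were whole multiples of 1 read within a tolerance of 0.05 reads, so the reads could be recovered for count tests.

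A gene was tested if 3 or more of the 6 libraries reached 1 CPM. The test was limma 3.58.1 (empirical Bayes with trend and robust options) on log2(CPM + 1), with a pseudocount of 1, in R 4.3.3, with Benjamini-Hochberg adjustment over all 11913 genes and a threshold of 0.05. Differences are labelled Kdm5c+/- minus wild type, and this scale understates the change of low genes. The difference between fractions was an interaction term over 12 libraries, which took no account of pools shared by the fractions. With pools, matched by genotype label and library number, as a block, 0 of 14193 genes were called at 0.05. On recovered reads, edgeR 4.0.16 (quasi-likelihood) and DESeq2 1.42.0 were run as alternatives. Other alternatives were a pseudocount of 0.25, no filter, quantile normalization, scaling by the median of ratios, a filter at a mean of 5 CPM, a replicate block, a fit in all 12 libraries and leaving out each library in turn. Nothing says that libraries came from separate experiments, so p-values measure only the spread between these pools. Intervals cover the spread between libraries, and the floor of 3 reads covers counting error only.

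Genes named are Kdm5c, the 15 with the smallest p and the 8 with the largest difference in each direction (mean of at least 5 CPM, and for the latter an unadjusted p under 0.01 and no overlap), up to 3 members of each list or role by p and up to 3 by level, and any clock gene. Not every gene that the rule allows is printed. The members and the lists were chosen with earlier results of these data known. Of the symbols 23 read as calendar dates, 19 of them among the genes tested, and are not named. GENCODE release 21 for mouse matched 15866 symbols (95.2%), and promoter windows are from RefSeq (GRCm38.p6). Python 3.11.15 was used for tables and figures.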

Additional observations from a re-analysis of the deposited data

How the results depend on the processing

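The count of genes called at an adjusted p under 0.05 was 0 with limma, 250 with DESeq2 and 1 in the fit over all 12 libraries. Leaving out 1 library gave 0 to 3, the 3 without the library labelled Kdm5c+/- 3. The count at unadjusted p under 0.05 was 1737, and 950 to 2667 when 1 library was left out: 950 without the library labelled Kdm5c+/- 1, 991 without wild type 2, 1119 without wild type 3 and 2667 without the library labelled Kdm5c+/- 3. Without both libraries numbered 2, an alternative chosen after seeing the data, it was 1121. The test of the difference between fractions called 0, and 0 to 7 when 1 library was left out. The cause of these shifts was not tested. With the replicate number as a block, 0 genes were called and 1644 had an unadjusted p under 0.05. Fatty acid synthesis genes at that level went from 0 to 2 higher and 1 lower with the block, and lipolysis genes from 3 to 0 higher. Deviations of same-numbered libraries correlated at 0.36, -0.016 and 0.0012, so the numbers were not taken as pairs. Of 103 genes whose difference is printed, 1 changed sign under any of 16 alternatives: Adipoq was at -0.12 with quantile normalization. Of the others 47 had no call under any alternative, and 55 were called by DESeq2. Of these, limma also called Mycl (2.62) and Gbp11 (1.51) in the fit without the library labelled Kdm5c+/- 3. Of 59 list medians, 35 kept their sign under every alternative and 24 changed it under at least 1. Depth limits values near the floor of 3 reads, 0.102 to 0.124 CPM, and 3 pools a group limit the rest: the lowest exact permutation p is 0.1.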
